A study of Mus musculus with 12 samples.

Results

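The insulin, PI3K, AMPK, TSC and mTOR pathway was described in HT22 cells treated with mesaconitine (MA) by way of 37 of its genes. They were chosen by name from the 25239 genes in the expression table, with earlier results of these data known. HT22 is an immortalized line of hippocampal origin from the mouse. MA is a toxic alkaloid, of the diterpenoid class, from Aconitum. MA-treated cells received 800 μM for 72 h and control cells received 0 μM for the same time, all of wild type genotype. From each treatment there were 3 libraries of fragmented mRNA taken as input and 3 libraries of fragments captured with an antibody to N6-methyladenosine (m6A), called IP, which makes 12 libraries in all. All came from a single cell line in culture, so any effect of other brain cells or of an animal is outside the model.

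Insulin and related growth factors act on a receptor tyrosine kinase whose adaptors, the IRS proteins, recruit PI3K to the membrane. The lipid made by PI3K brings PDK1 and AKT together, and active AKT inhibits the TSC complex, which otherwise keeps the small GTPase RHEB, and through it mTOR complex 1, switched off. AMPK, activated by LKB1 when energy is low, acts in the opposite direction on TSC and mTOR, and the pathway is a main control of translation and autophagy. m6A is a methyl mark on adenosines within mRNA that is read by proteins acting on RNA decay, splicing and translation.

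Of the 37 genes, 36 had a base mean above 0, and 5 of them held 6 of the 2643 m6A peaks in the deposited table: Tsc1, Mtor, Irs1, Inpp4b and Pik3r3. In MA the peaks on Tsc1 and Mtor held more IP reads per input read than in control, relative to the median peak, by 4.01-fold and 2.56-fold. The peaks on Irs1 and Inpp4b held fewer, by 3.10-fold and 3.32-fold. Read without reference to the median peak, these were 7.5-fold and 4.79-fold higher and 1.66-fold and 1.78-fold lower, and the interval of Inpp4b then spanned 0. Tsc1 encodes hamartin, a subunit of the TSC complex, Mtor the kinase that the complex holds back, Irs1 the main insulin receptor adaptor, and Inpp4b a phosphatase that removes lipids made downstream of PI3K. The 2 peaks on Pik3r3, a regulatory subunit of PI3K, changed less, and the interval of each spanned 0. The deposited table pools the reads of each peak over the 3 libraries of a kind, so it gives 1 value per group, the spread between libraries is not known from it and no test between MA and control was run. The 95% intervals below cover counting error only and are narrower than intervals that include the spread between libraries would be.

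The peaks are given first with their sequence, because the m6A mark is made in a short consensus of 5 bases: A or G, again A or G, then A, then C, and then A, C or T. Coordinates are of build mm10, and sequences were read on the RNA strand from the reference genome of that build, GRCm38, as DNA letters. Capitals mark each match to the consensus, which was searched on the RNA strand only. GGACT is one of its forms, so a GGACT is also counted as a match.

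The Irs1 peak, chr1:82289902-82289976 on the minus strand, covered 75 bases of coding sequence in exon 1 of 2 and held 2 matches. Of the peaks with 75 exonic bases, 63.3% held at least 1.
Irs1 coding peak: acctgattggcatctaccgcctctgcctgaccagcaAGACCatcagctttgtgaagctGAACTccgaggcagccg

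The Inpp4b peak, chr8:81770828-81770877 on the plus strand, covered 50 bases of coding sequence in exon 4 of 23. It held 2 matches, of which 1 was GGACT, a form found in 5.35% of the peaks of 50 exonic bases.
Inpp4b coding peak: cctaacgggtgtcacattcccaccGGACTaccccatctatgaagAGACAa

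The Mtor peak, chr4:148465969-148466018 on the plus strand, covered 50 bases of coding sequence in exon 13 of 58. Those 50 bases held 0 matches, whereas 49.6% of the peaks of that length held at least 1.
Mtor coding peak: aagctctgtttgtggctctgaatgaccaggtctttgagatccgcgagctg

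The Tsc1 peak, chr2:28689733-28689907 on the plus strand, covered 175 bases of the 3′UTR in exon 23 of 23, the last exon. Its middle lay 2650 bases past the end of the coding sequence. It held 2 matches, each shown with the bases around it, and 93.3% of the peaks of 175 exonic bases held at least 1.
Tsc1 3′UTR, first match: ggtttaaaaagcAGACAaaagtctctctg
Tsc1 3′UTR, second match: gtgacaagcgatAGACTcaggatcacttg

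Both Pik3r3 peaks lay at the start of the gene on the plus strand. The first, chr4:116221541-116221726, had 109 of its bases in the 5′UTR of the first exon and began before the first annotated exon base. The second, chr4:116222252-116222759, lay over the start codon and had 162 bases in exon 1, and the rest of its span lay beyond that exon. Gm49337, a gene on the same strand, overlaps both peaks. The place of its exons was not compared with the peaks, so its reads cannot be told apart from those of Pik3r3. The first peak held 2 matches and the second held 3, and among peaks within 25 bases of the same exonic length 77.8% and 90.3% held at least 1. The coding part of the second peak, which opens at the start codon, and the matches of the first are shown.
Pik3r3 5′UTR, first match: tgAAACTctagtggttgga
Pik3r3 5′UTR, second match: gtcgagctgactGGACTctccaaggggtc
Pik3r3 coding part: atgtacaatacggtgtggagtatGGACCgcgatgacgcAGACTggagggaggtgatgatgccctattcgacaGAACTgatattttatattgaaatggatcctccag

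**Figure D1:**
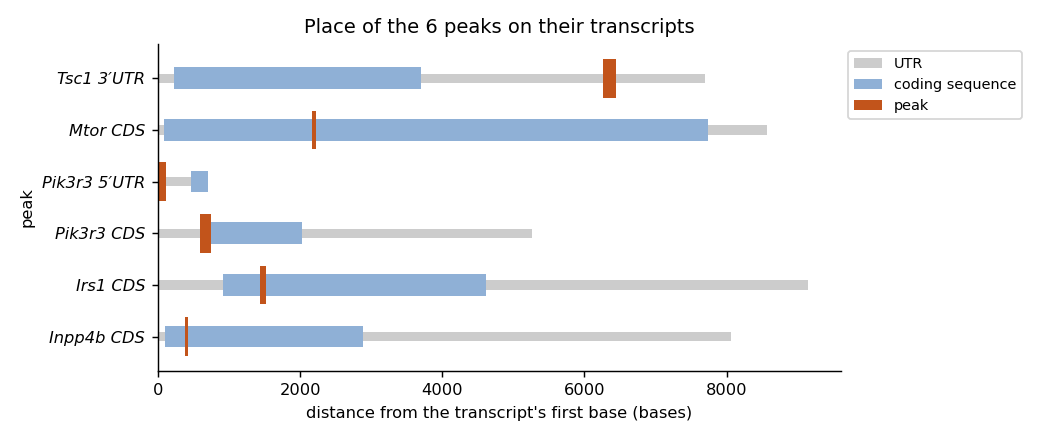
Place of the 6 peaks on the annotated transcript each was assigned to, with distance in bases from the transcript's first base on the x axis, UTRs as thin grey bars, coding sequence as blue bars and peaks in orange. The Tsc1 peak sits far into the 3′UTR, the Irs1, Inpp4b and Mtor peaks lie within coding sequence, and the 2 Pik3r3 peaks sit at the start of their transcripts, of which the upper is a partial transcript of 707 bases.

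How strongly each gene was expressed was read from the base mean, which is the mean over libraries of read counts divided by a size factor. It is 1 value over both treatments, so it shows a level and says nothing of a difference between MA and control. For comparisons between genes it was divided by the exon length in kb. The median per kb over the 36 genes was 301.5, against 132.6 over all genes above 0, which places it at percentile 65.2. Of the 36, 30 lay above the median of all genes and 5 above the 90th percentile, which was 1193 per kb. In base means before division by length, 28 of the 37 genes reached 1000 or more.

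Among the receptor and its adaptors, Grb10, an adaptor that restrains insulin signalling and is itself a target of mTOR complex 1, had the highest level with 904.5 per kb. Irs1 had 596 per kb and Irs2, its close relative, 564 per kb. Insr, the receptor, was the lowest of the 4 with 223 per kb. The adaptors thus all stood above the receptor, and Irs1 and Irs2 were nearly level, with a ratio of 1.06. Grb10 exceeded Irs1 by a ratio of 1.52, and of 2.73 with the longest coding transcript as length.

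In PI3K, the most abundant member per kb was Pik3r2, a regulatory subunit, with 1419, followed by Pik3r1 with 784 and Pik3r3 with 493. The catalytic subunits had 663 per kb for Pik3ca, 332 for Pik3cb and 44.2 for Pik3cd. Pik3cd, the isoform best known from leukocytes, was 15.0 times lower per kb than Pik3ca. The phosphatases that counter the pathway were far apart in base mean per kb. Phlpp1, which removes phosphate from AKT, had 291 per kb, and Inpp4b had 1.7 per kb, from a base mean of 21.8, the lowest of the 36 genes above 0. The Inpp4b peak, of 50 bases, held 69 input reads, which is many for that base mean (percentile 94.6 of all peaks). The base mean may therefore understate the level of Inpp4b, which was not tested.

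Akt1 had 1860 per kb and Akt2 344 per kb, a ratio of 5.41 between these kinases. Pdpk1, which encodes PDK1, the kinase that activates AKT, had 321 per kb. Foxo3 and Foxo1, transcription factors that AKT keeps out of the nucleus, had 200.1 and 67.0 per kb.

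The TSC complex genes Tsc2 and Tsc1 were nearly equal, with 296.5 and 283.5 per kb. Tbc1d7, a further subunit, had 56.3 per kb, and Rheb, the GTPase that the complex acts on, had 236 per kb. In the mTOR complexes, Mtor had 321 per kb, Rictor 188, Rptor 178.5 and Mlst8 123.5. Rptor marks complex 1, Rictor marks complex 2 and Mlst8 is shared by both. The inhibitory subunits Akt1s1 and Deptor had 215 and 105 per kb. The order of Rictor and Rptor depended on the length used, since their ratio was 1.06 with all exons and 0.939 with the longest coding transcript. Mtor stood above Rptor by a ratio of 1.80 with all exons and of 1.04 with that transcript. Rheb was the most affected of these genes by the choice, with 236 per kb of all exons and 1022 per kb of the longest coding transcript, which placed it above the 436 of Tsc1 and the 455 of Tsc2 on that length.

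Of the targets of mTOR complex 1, Eif4ebp1, a repressor of cap-dependent translation, had 2009 per kb, 6.56 times the 306.5 per kb of its relative Eif4ebp2. The S6 kinase genes Rps6kb2 and Rps6kb1 had 231 and 198 per kb, and their order turned with the longest coding transcript, from a ratio of 1.17 to 0.839. In the AMPK branch, Stk11, which encodes LKB1, had 1475 per kb. The AMPK subunits had 1041 per kb for Prkag1, 833 for the catalytic Prkaa1 and 225 for Prkab1. The other catalytic subunit, Prkaa2, was listed at 0, as were 35.9% of all genes in the table. Rras2, a RAS-family GTPase that can bind PI3K, had the highest level of all 37 with 2194 per kb of all exons. Per kb of the longest coding transcript, Akt1 with 2833 and Eif4ebp1 with 2210 stood above its 2206.

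**Figure D2:**
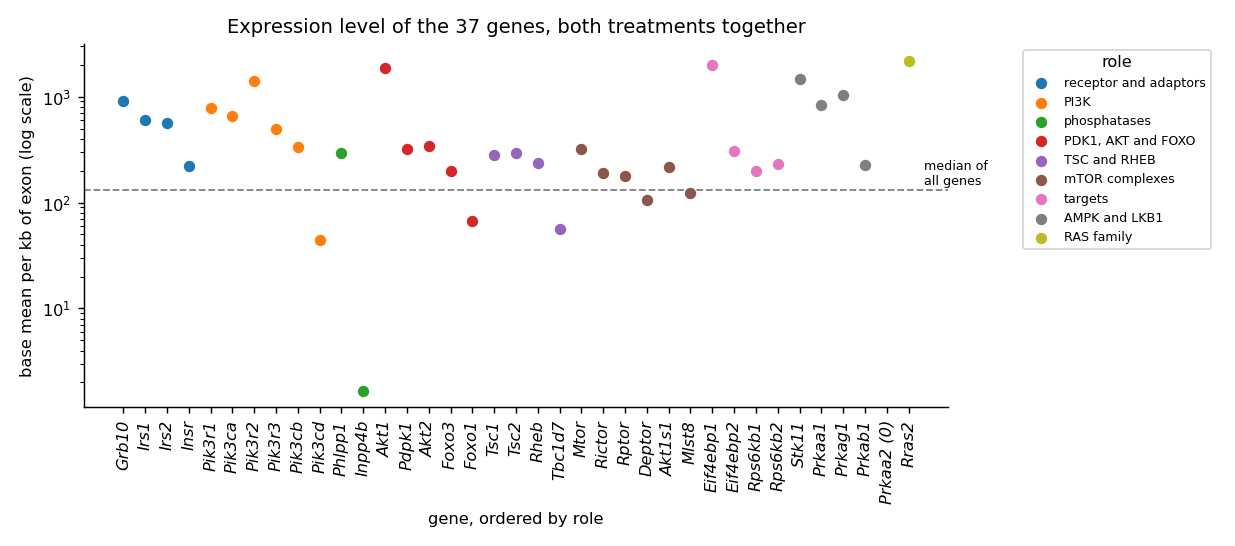
Base mean per kb of exon (y axis, log scale) of each of the 37 genes, ordered and coloured by role, over both treatments together and without error since the table gives 1 value per gene. The dashed line is the median of all genes above 0 (132.6 per kb), 30 of the genes lie above it, Inpp4b lies lowest with 1.7 and Prkaa2, listed at 0, has no point.

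The labelled cell type was checked against its markers in the same table. Of 14 neuronal markers, 6 were listed at 0 and 12 had a base mean under 10, the others being Tubb3 with 473 and Dlg4 with 4073, and the 14 together summed to 4556. The 4 fibroblast-like markers ranged from 1573 for Pdgfrb to 134804 for Col3a1. Of 4 markers each, 3 were under 10 for astrocytes, 3 for oligodendrocytes and 2 for microglia. Most defining neuronal markers were thus listed at or near 0, which, on the listed values, goes against a neuronal label. Of the 2643 peaks, 2472 lay in genes with a base mean, so reads also fell on genes listed at 0 or not listed. A listed 0 may therefore not mean that a marker is not expressed, which was not tested. The levels above are those of a cell line with this listed profile.

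A peak of the table lay on 5 of the 37 genes. Over all genes with a base mean above 0, 12.5% held one. The study called more peaks than this table lists, and those were not analysed here, so a gene without a listed peak may still carry m6A. Of the 8 genes with a base mean above 5000, 7 held no listed peak, and of all genes above 5000, 13.0% held one. The 8 were Grb10, Pik3r1, Rras2, Akt1, Stk11, Pik3ca, Pik3r2 and Irs1, of which Irs1 held a peak. The lowest of the 36 in base mean, Inpp4b, also held one. Its peak had 69 input reads, summed over the 3 control and 3 MA input libraries, while its base mean of 21.8 is a mean per library. Their quotient is thus not a share of the gene's reads and serves only to compare peaks. It was 3.17 input reads per unit of base mean, at percentile 94.6 of all peaks, whose median was 0.0995.

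The change in m6A was measured as the ratio of IP to input reads in MA over that in control, on the log2 scale with 0.5 added to each count. The reads within peaks differed between the pools, with 288659 input and 267002 IP reads in control over all peaks, and 214778 input and 359889 IP reads in MA. Over all peaks the median change was 0.90 for the ratio, -0.47 for input reads and 0.46 for IP reads, so each change below is given relative to its median. Whether this overall shift comes from depth, capture or methylation was not tested. A change of more than 1.5-fold from the median is called higher or lower.

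Of the 6 peaks, 2 were higher and 3 lower by more than 1.5-fold in the ratio, and 1 was neither. Over all 2643 peaks, 27.6% were higher and 25.7% lower, so that more than 1.5-fold was common and the counts among the 6 say little on their own. Without the centring 2 of the 6 were higher and 2 lower, with an interval above 0 for 2 and below 0 for 1, and over all peaks the share of higher calls went from 51.8% to 89.2%. The interval lay above 0 for 2 of the 6 and below 0 for 2, beside 22.5% and 22.6% of all peaks. The median change over the 6 was -0.57.

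The Tsc1 peak held 71 input and 40 IP reads in control, and 30 input and 129 IP reads in MA. IP reads were therefore fewer than input reads in control and more in MA. There were 0.563 IP reads per input read in control (exact 95% interval 0.372 to 0.842) and 4.30 in MA (2.87 to 6.63). The change relative to the median was 2.0 (95% interval 1.21 to 2.80), at percentile 96.0 of all peaks. It had parts in both reads, with IP higher by 1.22 (0.71 to 1.72) and input at -0.76 (-1.38 to -0.15). These reads cover 175 bases and are not a measure of the whole Tsc1 mRNA. In bulk samples of a cell line, a change in all cells and a change in part of them cannot be told apart.

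The Mtor peak held 60 input and 37 IP reads in control, and 33 input and 99 IP reads in MA. It showed the same pattern as Tsc1, with IP below input in control and above it in MA. Over all peaks, the median reads per peak were 57 input and 57 IP in control, and 40 and 81 in MA. More IP than input reads in MA was thus not particular to Tsc1 and Mtor. IP reads per input read were 0.617 (0.398 to 0.944) in control and 3.0 (2.0 to 4.59) in MA. The change was 1.36 (0.54 to 2.17), at percentile 89.3. The IP reads changed by 0.95 (0.40 to 1.49), while the input change of -0.39 (-0.996 to 0.22) stayed within 1.5-fold.

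The Irs1 peak, the deepest of the 6, held 163 input and 264 IP reads in control, and 125 input and 122 IP reads in MA. Here the IP pool stood above the input pool in control and level with it in MA. IP reads per input read were 1.62 (1.33 to 1.98) in control and 0.976 (0.754 to 1.26) in MA. The change was -1.63 (-2.09 to -1.18), at percentile 6.17 of all peaks, with the narrowest interval of the 6. Nearly all of it was in the IP reads, at -1.57 (-1.88 to -1.26), beside an input change of 0.08 (-0.25 to 0.42). Without the centring it was -0.73 (-1.19 to -0.27).

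The Inpp4b peak held 39 input and 72 IP reads in control, and 30 input and 31 IP reads in MA. As at Irs1, the excess of IP reads seen in control was not seen in MA. IP reads per input read were 1.85 (1.23 to 2.80) in control and 1.03 (0.605 to 1.77) in MA. The change was -1.73 (-2.64 to -0.82), at percentile 5.41, with an IP change of -1.67 (-2.27 to -1.06) and an input change of 0.09 (-0.59 to 0.77). Without the centring it was -0.83 (-1.74 to 0.08).

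The Pik3r3 peak in the 5′UTR held 37 input and 44 IP reads in control, and 27 and 45 in MA. IP reads per input read were 1.19 (0.75 to 1.89) in control and 1.67 (1.01 to 2.79) in MA. The change relative to the median was -0.42 (-1.35 to 0.50), within 1.5-fold, and 0.48 (-0.45 to 1.41) without the centring. The peak over the start codon held 41 input and 57 IP reads in control, and 38 and 60 in MA. There, IP reads per input read were 1.39 (0.91 to 2.13) in control and 1.58 (1.035 to 2.44) in MA. The change of that peak was -0.72 (-1.54 to 0.10), past 1.5-fold but with an interval that spans 0. Without the centring it was 0.18, and with the offsets of the peak caller it was -0.36, so at both Pik3r3 peaks the direction rests on the scaling. At 27 to 60 reads per pool, a change of the size seen could not be separated from counting error.

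**Figure D3:**
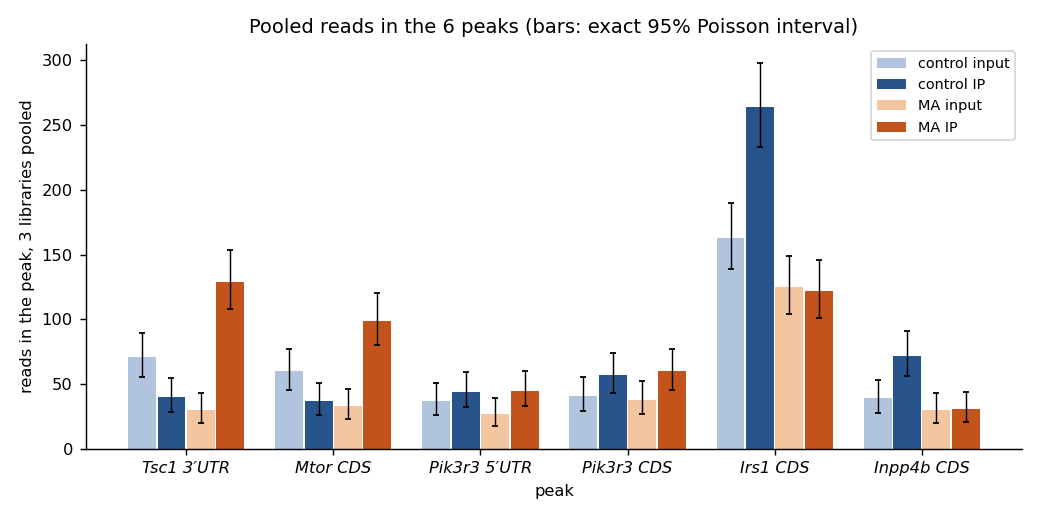
Reads in each of the 6 peaks (y axis) in the 4 pools of 3 libraries, with exact 95% Poisson intervals for counting error as error bars. IP reads clearly exceed input only in MA at Tsc1 (129 against 30) and Mtor (99 against 33), and only in control at Irs1 (264 against 163) and Inpp4b (72 against 39). At the 2 Pik3r3 peaks a smaller excess of IP is seen in MA (45 against 27 and 60 against 38).

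The input and IP reads were also compared alone. In input, 0 of the 6 peaks were higher and 1, that of Tsc1, was lower by more than 1.5-fold, beside 11.8% and 14.5% of all peaks. In IP, 2 were higher, Tsc1 and Mtor, and 2 lower, Irs1 and Inpp4b, beside 17.0% and 16.8% of all peaks. The 4 peaks with the larger ratio changes were therefore also past 1.5-fold in IP reads.

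**Figure D4:**
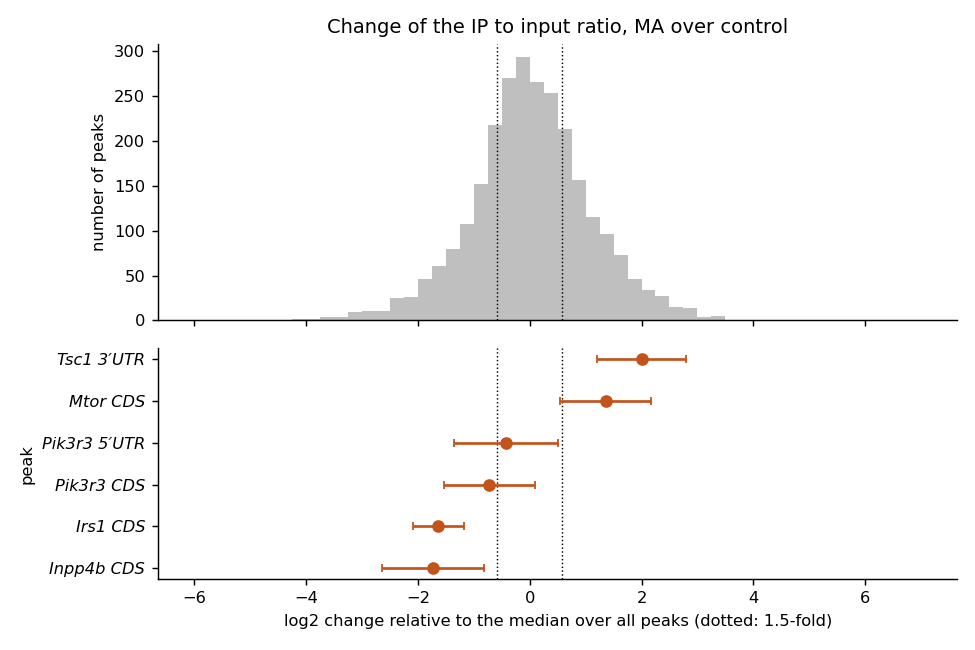
Change of the IP to input ratio, MA over control, on the log2 scale relative to the median over all peaks (x axis), as a histogram of the number of peaks over all 2643 (upper panel) and for the 6 peaks with 95% counting intervals (lower panel). Dotted lines mark 1.5-fold, and Tsc1 (2.0) and Mtor (1.36) lie on the right side of the distribution and Irs1 (-1.63) and Inpp4b (-1.73) on the left.

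The peak caller's own log2 enrichment of IP over input, scaled with background regions, was compared within each group. It was -0.44 in control and 1.96 in MA for Tsc1, and -0.33 and 1.43 for Mtor. It was 1.09 in control and -0.18 in MA for Irs1, and 1.28 and -0.10 for Inpp4b. On this scale Tsc1 and Mtor were enriched in MA alone and Irs1 and Inpp4b in control alone. Over all peaks, 450 went from below 0 in control to above 1 in MA and 122 went from above 1 in control to below 0 in MA. For Pik3r3 the enrichment stayed above 0 in both groups, at 0.64 and 0.60 for the 5′UTR peak and at 0.88 and 0.53 for the peak over the start codon.

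Other genes of the pathway were taken from a list of 74 that holds, among others, the GSK3 kinases, the amino acid sensors and the translation factors. Of these, 69 had a base mean above 0, and 21 held 26 peaks, which is 30.4% of the genes above 0 beside the 12.5% of all genes. The list was written with earlier results of these data known, so these shares do not test whether the pathway holds more peaks than other genes. By more than 1.5-fold in the ratio, 7 of the 26 peaks were higher and 6 lower, with a median change of 0.04. The interval lay above 0 for 8 and below 0 for 5. As shares these were 26.9% higher and 23.1% lower, close to the 27.6% and 25.7% of all peaks.

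Of the peaks past 1.5-fold with most reads, Acaca, a fatty acid synthesis enzyme that AMPK phosphorylates, had a change of 0.73 (0.44 to 1.01). Stradb and Cab39l, genes of the LKB1 partner families, had 0.89 (0.44 to 1.35) and 0.99 (0.45 to 1.54). Shc1, an adaptor of receptor tyrosine kinases, had 1.12 (0.46 to 1.79). Telo2, which helps mTOR-family kinases to fold, had -0.98 (-1.44 to -0.53) at its 5′UTR peak. Gsk3a, a kinase that AKT inhibits, held a peak on each side, with 1.13 (0.53 to 1.73) in coding sequence and -0.66 (-1.13 to -0.20) in the 3′UTR. By point value, the Tsc1 change of 2.0 stood above all 26 of these, and the Irs1 and Inpp4b changes stood below all 26. The nearest were Eif4e with 1.49 (0.49 to 2.48) and Sos1 with -1.36 (-2.46 to -0.26). The interval of Eif4e overlapped that of Tsc1, and the interval of Sos1 overlapped those of Irs1 and Inpp4b. The members and this list were chosen with earlier results of these data known, so this ranking is a description and not a test.

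**Figure D5:**
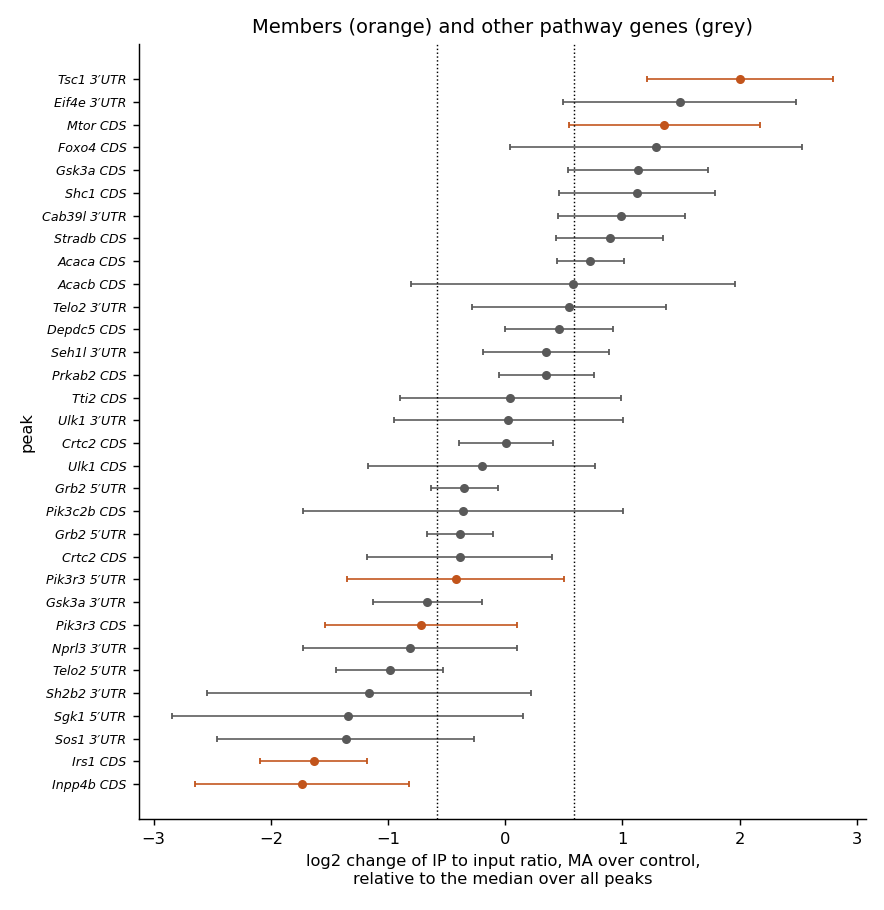
Change of the IP to input ratio, MA over control, relative to the median over all peaks (x axis, log2) with 95% counting intervals, for the 6 peaks of the 37 genes (orange) and the 26 peaks of other pathway genes (grey), one peak per line and sorted by change. Dotted lines mark 1.5-fold, Tsc1 is at the top with 2.0 and Inpp4b at the bottom with -1.73.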

How the data were processed

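MeRIP-seq was made by the authors from 3 input and 3 IP libraries per treatment. Reads were trimmed with fastp and aligned to mm10 with HISAT2, transcripts were quantified with StringTie and compared with DESeq2, and peaks were called with exomePeak2. Tool versions are not given in the sources used here, nor are the libraries behind the base mean, nor whether the UMIs of the kit were used. The deposited base mean is a normalized signal, 1 value per gene. The deposited read counts of a peak were summed by the authors over 3 libraries. The log2 enrichment per group was deposited by the authors after scaling by background regions. The columns of the authors' comparisons (fold changes, standard errors, statistics, p-values, scores) were not used. 0 columns of single libraries were present.

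Changes were computed in Python 3.11.15 (scipy 1.17.1, numpy 2.4.6, pandas 2.3.3, pysam 0.24.0), with 0.5 added to each count. Intervals were logit (Woolf-Gart) for changes and exact Clopper-Pearson for ratios of reads. The changes and their intervals were tried on simulated reads that held counting error only. That trial cannot show how the intervals fare with spread between libraries. Reads in a peak set the precision and intervals cover counting error only. Peaks were placed on GENCODE M21, and 2520 of 2643 lay on a same-strand transcript of the named gene. All members were named by role, and of the other pathway genes up to 6 past 1.5-fold with most reads. Eif4e and Sos1 were named besides, as the highest and the lowest change of that list. Members and lists were chosen with earlier results of these data known. Some items of the pathway are not reported here. Figures were drawn with matplotlib 3.10.9.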

Additional observations from a re-analysis of the deposited data

How the results depend on the processing

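Centring, scaling by total reads or by the caller's offsets, the added count, the fold threshold, a minimum of 20 reads in each pool, stricter peaks, the base mean minimum and the transcript length were varied one at a time. Of 50 alternative values for the counts and summaries, 41 stayed within 1.5 times or the stated spread and 9 moved. Within 1.5 times, the number of peaks lower in the ratio still varied from its main value of 3. It was 2 without centring, at 2-fold, among stricter peaks and with the caller's offsets, and 4 at 1.2-fold. For the input reads the number of lower peaks was 2 without centring, 2 at 1.2-fold and 0 at 2-fold, and the number of higher peaks was 1 at 1.2-fold. For the IP reads it was 4 lower at 1.2-fold and 1 higher at 2-fold, and 1 lower among stricter peaks, which no longer hold Irs1. The share of all genes with a peak was 15.6% at a base mean of 10 or more and 9.57% with 20 or more reads in each pool. In single values, the peak over the Pik3r3 start codon reversed to 0.18 without centring, and the ratios of Rictor over Rptor (0.939) and of Rps6kb2 over Rps6kb1 (0.839) reversed with the longest coding transcript, by the construction of the length. The ratio changes of Tsc1, Mtor, Irs1 and Inpp4b kept their direction under every alternative that gave them a value, but without centring Tsc1 moved to 2.91, Mtor to 2.26 and Irs1 to -0.73, with Irs1 input and IP reads at -0.38 and -1.11. The Pik3r3 5′UTR peak, not past 1.5-fold, changed sign to 0.48 without centring. No paired analysis was possible because the reads are pooled over replicates and the columns carry no replicate number, and leaving out each replicate in turn could not be run for the same reason.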
